A study of Mus musculus with 9 samples.

Results

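The genes of NF-kappaB signaling were followed in splenic B cells of leukemic and wildtype mice. A fixed list of 38 genes was used: the Rel family subunits, the IkappaB inhibitors, the IkappaB kinases, and the adaptors, ubiquitin ligases and deubiquitinases that carry signals to and from them. All 38 genes were found by their symbols among the 22139 genes with summed reads. All 38 also passed the filter on low expression, which kept 11163 genes for testing. The lowest estimated read number of any member in any mouse was 16 and the highest was 7698.

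RNA was sequenced from B cells that had been isolated from spleens with a pan B cell kit, with 1 library per mouse and 3 mice per group. All 9 mice carried the C57/BL6NTac background according to the labels. Eµ-MTCP1 mice (Z2551, Z2606 and Z2641, all from founder line Z36) carried human MTCP1, and Eµ-TCL1 mice (B4376, B4437 and C1594) carried human TCL1; in the Eµ-MTCP1 design an immunoglobulin heavy chain variable promoter and the Eµ enhancer drive the transgene in immature and mature B cells. According to the series' design text the Eµ-MTCP1 and Eµ-TCL1 mice were age-matched and already carried a large disease burden; neither the ages nor a treatment are named. The 3 wildtype mice (Z2754, Z2755 and Z2785) were littermates without the human MTCP1 transgene, so that the effects of the transgene and of leukemia cannot be told apart in these comparisons, and the Eµ-MTCP1 group stands for a founder line rather than for several integration sites.

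Between 6447542 and 8033303 estimated reads per library fell in genes. Human MTCP1 had 1744 to 4833 reads in the Eµ-MTCP1 mice and at most 3 elsewhere, and human TCL1 had 26439 to 47437 reads in the Eµ-TCL1 mice and 3 to 18 elsewhere. Mitochondrial genes held 10.8% of the reads in wildtype mouse Z2754 and 8.02% in Eµ-MTCP1 mouse Z2641, against 2.91 to 4.57% in the other 7 mice, and the part of this in the results was not tested. Wildtype mouse Z2755 was sequenced on lane 1 and the other 8 mice on lane 5. As a check of the labelled cell type, the B cell receptor component Cd79a had 19781 to 27080 reads and Cd79b 13445 to 18997 reads over the 9 mice, and Ms4a1, which encodes a B cell surface protein, had 2430 to 6311 reads. Pax5, a B cell transcription factor, had 204 to 343 reads in leukemic and 387 to 515 in wildtype mice, and Cd22, an inhibitory receptor, 4050 to 7244 and 8671 to 11815 reads; neither was called. The part of these differences in the results was not tested. Levels of genes are given as CPM, counts scaled to library size and normalized by TMM, a scaling of library sizes between mice.

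NF-kappaB is a family of dimeric transcription factors that IkappaB proteins hold inactive until the IkappaB kinase (IKK) complex marks the inhibitor for degradation. In B cells the canonical route runs from the B cell receptor and Toll-like receptors to dimers with Rela and Rel, and the noncanonical route runs from CD40 and the BAFF receptor through Map3k14 to the processing of Nfkb2 and to Relb. Several of the genes that NF-kappaB activates encode parts of its own pathway, such as inhibitors, subunits, adaptors and ubiquitin ligases.

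Tnfaip3, Nfkb2, Rel, Birc3 and Nfkbia are the 5 members that passed the test in the comparison of Eµ-MTCP1 with wildtype mice described in the next paragraphs. Of these, 4 hold a match of the kappaB consensus motif in the 250 bases before an annotated start. The promoters below are from RefSeq (build GRCm38.p6), are written 5′ to 3′ on the strand of the gene, and carry every match of the 10-base motif on either strand in capitals, with overlapping matches joined. They are shown so that the position of the motif can be seen in genes that passed the test. Members with a match that did not pass are named in the next paragraph, and joint movement of genes was not tested.
Tnfaip3, chr10:19015411-19015660, minus strand: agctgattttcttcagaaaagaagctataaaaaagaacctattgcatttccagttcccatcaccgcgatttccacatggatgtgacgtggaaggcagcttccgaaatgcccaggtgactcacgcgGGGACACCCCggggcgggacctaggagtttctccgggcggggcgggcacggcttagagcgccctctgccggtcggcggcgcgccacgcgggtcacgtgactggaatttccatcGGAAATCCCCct
Nfkb2, chr19:46304487-46304736, plus strand: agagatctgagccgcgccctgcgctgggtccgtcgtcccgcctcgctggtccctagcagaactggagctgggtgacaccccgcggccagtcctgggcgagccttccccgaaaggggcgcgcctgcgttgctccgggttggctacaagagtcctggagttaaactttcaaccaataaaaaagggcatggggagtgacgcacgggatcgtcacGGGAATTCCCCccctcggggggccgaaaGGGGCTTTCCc
Rel, chr11:23770970-23771219, minus strand: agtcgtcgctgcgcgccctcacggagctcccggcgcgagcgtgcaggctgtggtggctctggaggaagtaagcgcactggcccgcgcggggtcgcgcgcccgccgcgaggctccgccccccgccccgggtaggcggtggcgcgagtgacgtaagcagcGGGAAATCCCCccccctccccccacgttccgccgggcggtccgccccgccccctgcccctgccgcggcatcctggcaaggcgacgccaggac
Nfkbia, chr12:55492648-55492897, minus strand: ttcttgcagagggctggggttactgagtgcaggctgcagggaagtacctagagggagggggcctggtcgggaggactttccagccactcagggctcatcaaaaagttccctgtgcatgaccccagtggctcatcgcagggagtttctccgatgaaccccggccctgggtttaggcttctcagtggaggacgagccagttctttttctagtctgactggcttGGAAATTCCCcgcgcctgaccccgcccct

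In the Tnfaip3 promoter shown the matches began 125 and 12 bases before the start, and in the Nfkb2 promoter shown 39 and 11 bases before it. RefSeq also holds another Tnfaip3 promoter, chr10:19011964-19012213, without a match, and 2 further Nfkb2 promoters with matches that began 236 and 225 bases before their starts. The Rel match began 92 bases and the Nfkbia match 29 bases before the start. The window before Birc3 (chr9:7873171-7873420, minus strand) held no match, which says only that these letters are not in this window. RefSeq promoters were matched by symbol for 33 of the 38 genes, and 10 of the 33 (30.3%) had a match in at least 1 annotated promoter; the others with a match were Cyld, Map3k7, Nfkbid, Nfkbie, Tnip1 and Traf3. Among all 27025 genes with a promoter of the same length, 4.46% had a match. A match is a description of the letters and not evidence of binding.

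In Eµ-MTCP1 mice, 5 of the 38 genes fell against wildtype and none rose: Tnfaip3, Nfkb2, Rel, Birc3 and Nfkbia passed an adjusted p of 0.05 in edgeR's quasi-likelihood test, with Benjamini-Hochberg adjustment over all 11163 genes. Where no other setting is named, a gene is called here when it passed in this fit. The fitted levels of Tnfaip3 and Nfkb2 were 0.275 and 0.293 times those of wildtype mice, that of Rel was 0.438 times, that of Birc3 0.517 times and that of Nfkbia 0.546 times. These 5 genes are 13.2% of the members, against 9.49% of all genes called in either direction and 4.0% of all genes called lower. In bulk samples, fewer cells of a type and less RNA per cell cannot be told apart. The count of 5 was 10 with DESeq2, where 713 of all genes were called lower, and 10 with library size alone, where 731 were; it was 1 without wildtype mouse Z2754, 2 without Z2755, 2 without Eµ-MTCP1 mouse Z2551, 3 without Z2606 and 3 without Z2641; Tnfaip3 was called in every one of these fits. The genes called lower among all genes fell from 446 to 253, 271, 253, 425 and 364 in the fits without these mice, in the same order. Z2754 and Z2641 are the mice with the most mitochondrial reads.

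Below the threshold the members lay mostly on the same side. At an unadjusted p under 0.05, 14 of 38 members (36.8%) were lower in Eµ-MTCP1 mice against 11.5% of all genes, and 1 (Tab1) was higher against 13.5%. For 16 members (42.1%) all 3 Eµ-MTCP1 mice lay below all 3 wildtype mice, against 15.3% of all genes, and for 2 (Tab1 and Irak2) all lay above, against 14.7%. The median log2 fold change of the members was -0.46, beside -0.02 for all genes tested, and 28 of the 38 values were below 0.

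In Eµ-TCL1 mice, none of the 38 genes passed the adjusted threshold with edgeR, where 9.16% of all genes did. At an unadjusted p under 0.05, 8 members (21.1%) were lower, namely Rel, Map3k14, Nfkbia, Traf3, Rela, Traf5, Ikbkb and Otulin, against 11.9% of all genes. The 2 members higher at that level were Tab1 and Irak2, against 13.2% of all genes. DESeq2 called 3 members lower in Eµ-TCL1 mice, Nfkbia, Traf3 and Traf5, beside 770 of all 11163 genes. The deposited whole counts with edgeR called 1 higher, Irak2, beside 849 of 14567 genes. All 3 Eµ-TCL1 mice lay below all 3 wildtype mice for 9 members, against 16.1% of all genes, and above for 4 (Ripk1, Tab1, Ikbke and Irak2), against 16.6%. The median log2 fold change of the members was -0.17, beside -0.01 for all genes.

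Both comparisons share the wildtype mice, so their values are given side by side and were not counted as separate evidence. With the mean of both models set against wildtype, Tnfaip3, Rel, Nfkbia and Birc3 fell, 4 of 38 members or 10.5%, against 13.1% of all genes called and 6.16% called lower. All 6 leukemic mice lay below the wildtype mice for 9 members (Tnfaip3, Rel, Map3k14, Nfkbia, Traf3, Rela, Traf5, Ikbkb and Nfkbid), against 9.15% of all genes, and above for Tab1 and Irak2, against 9.44%. In the deposited log2 values per gene 7 members lay below and 1 above, since Tnfaip3, Traf3, Nfkbid and Irak2 overlapped with wildtype there and Birc3 lay below it. The count of 4 was 10 with DESeq2, where 944 of all genes were called lower against 688 in the edgeR fit, and 11 with library size alone, where 1160 were; it was 0 without wildtype mouse Z2754, 1 without Z2755, 2 without Z2785 and 2 without Eµ-MTCP1 mouse Z2551, where 415, 425, 602 and 527 of all genes were called lower.

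**Figure D1:**
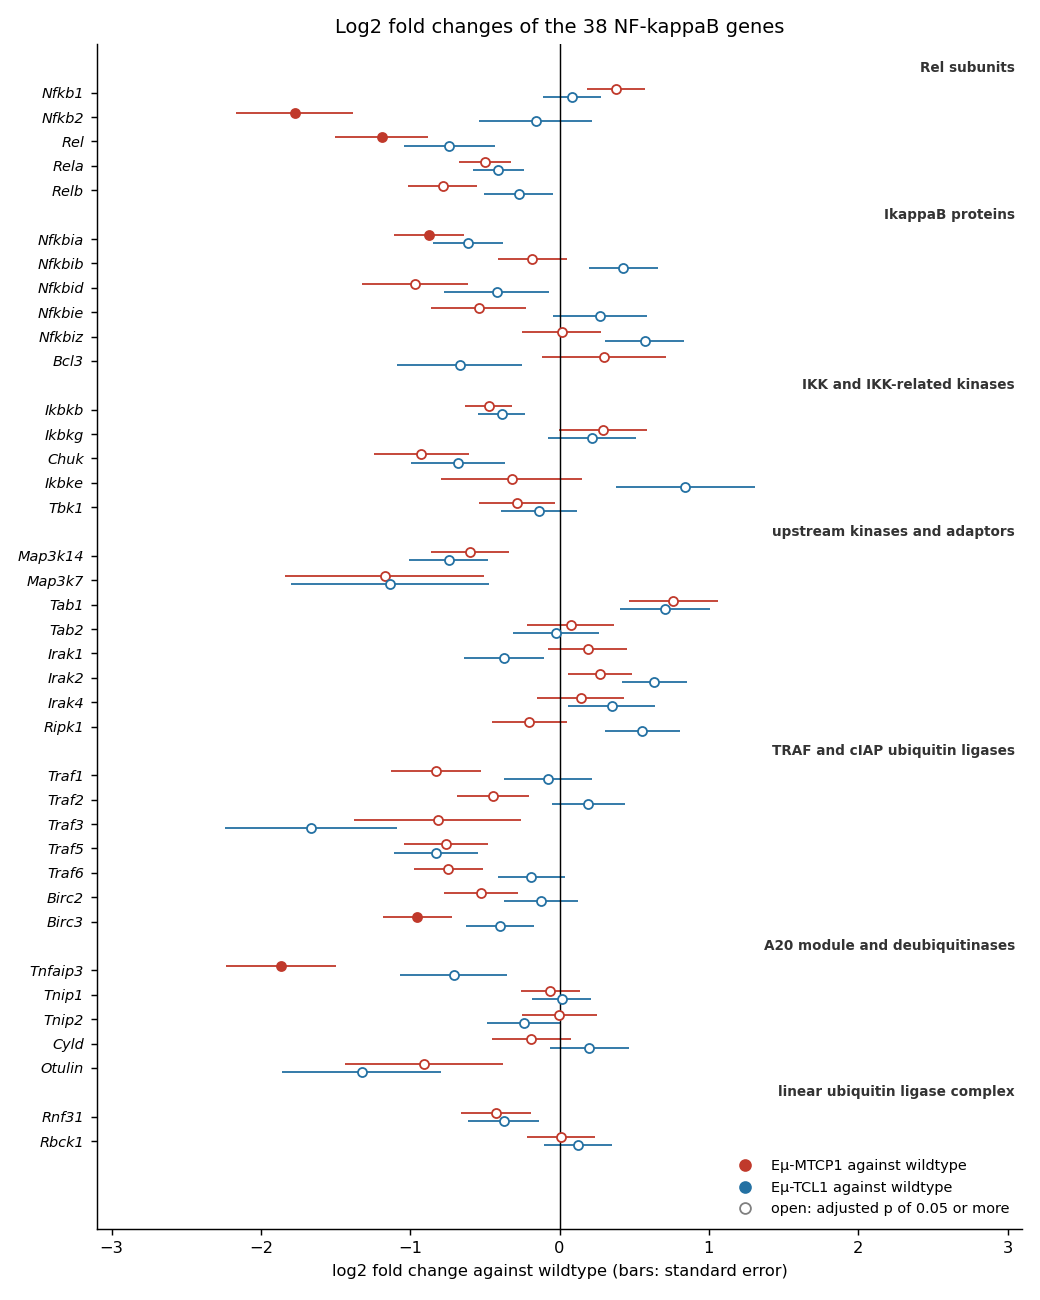
Log2 fold changes (points, x axis) with standard errors (bars) of all 38 genes, grouped by role, for Eµ-MTCP1 against wildtype in red and Eµ-TCL1 against wildtype in blue. Filled points had an adjusted p under 0.05; they are Nfkb2, Rel, Nfkbia, Birc3 and Tnfaip3, all in Eµ-MTCP1 mice and all left of 0.

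The Rel family forms the DNA-binding dimers. Nfkb2 (chr19:46304320-46312385, plus strand), the precursor of the noncanonical subunit, had 105, 83.1 and 84.6 CPM in Eµ-MTCP1 mice Z2551, Z2606 and Z2641. In the Eµ-TCL1 group B4376 had 298, B4437 110 and C1594 427 CPM, and in the wildtype group Z2754 had 285, Z2755 331 and Z2785 317 CPM. Values below keep this order of mice. The Eµ-MTCP1 mice were therefore all below the wildtype mice, while the Eµ-TCL1 mice were split, with B4437 near the Eµ-MTCP1 level and the other 2 within or above the wildtype range. The log2 fold change was -1.77 ± 0.39 (SE, adjusted p = 0.018) in Eµ-MTCP1 and -0.16 ± 0.38 (adjusted p = 0.83) in Eµ-TCL1 mice. Without B4437 the latter value was 0.20. The call in Eµ-MTCP1 mice was lost by a small margin without Z2551, Z2754 or Z2755, at an adjusted p of 0.054 in each case.

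Rel (chr11:23736847-23770970, minus strand), the subunit that lymphocytes use for growth responses, had 38.6, 67.9 and 33.9 CPM in Eµ-MTCP1 mice. Its levels were 50.1, 61.8 and 80.5 CPM in Eµ-TCL1 and 139, 97.8 and 83.9 CPM in wildtype mice. All 6 leukemic mice were below the wildtype mice, although Eµ-TCL1 mouse C1594 was close to wildtype mouse Z2785. Rel fell by 1.19 ± 0.31 on the log2 scale in Eµ-MTCP1 mice (adjusted p = 0.037), and its log2 fold change in Eµ-TCL1 mice was -0.74 ± 0.31 (adjusted p = 0.16). The call in Eµ-MTCP1 mice was lost without Z2551 (adjusted p = 0.13), Z2641 (0.098), Z2754 (0.13) or Z2755 (0.075).

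The canonical subunit Rela had 99.9, 89.4 and 96.5 CPM in the Eµ-MTCP1 mice, 105, 96.9 and 102 CPM in the Eµ-TCL1 mice and 113, 160 and 131 CPM in the wildtype mice. Every leukemic mouse lay below every wildtype mouse, by log2 fold changes of -0.50 ± 0.17 (adjusted p = 0.11) and -0.41 ± 0.17 (adjusted p = 0.17). Relb, the partner of the processed Nfkb2 product, had 91.2, 68.9 and 77.3 CPM in the Eµ-MTCP1 mice, 121, 83.6 and 133 CPM in the Eµ-TCL1 mice and 107, 140 and 162 CPM in the wildtype mice. Its log2 fold changes were -0.78 ± 0.23 (adjusted p = 0.060) and -0.27 ± 0.23 (adjusted p = 0.50), and B4437 was again the lowest of the Eµ-TCL1 mice. DESeq2 and library size alone called both Rela and Relb lower in Eµ-MTCP1 mice.

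Nfkb1, the canonical precursor, was the subunit whose values lay on the other side. It had 174, 217 and 243 CPM in the Eµ-MTCP1 mice, 161, 180 and 175 CPM in the Eµ-TCL1 mice and 148, 143 and 198 CPM in the wildtype mice, with overlap between all groups. The log2 fold changes were 0.38 ± 0.19 (adjusted p = 0.26) and 0.08 ± 0.19 (adjusted p = 0.83).

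Per unit of transcript length the balance of the family could be compared within a mouse. Of the summed TPM, a read count scaled by transcript length and library size, of the 5 subunit genes, Nfkb1 made up 27.6, 35.8 and 39.1% in the Eµ-MTCP1 mice, 17.4, 29.9 and 17.95% in the Eµ-TCL1 mice and 15.02, 13.2 and 18.1% in wildtype mice. The share of Nfkb2 was 15.1, 12.1 and 12.1% in Eµ-MTCP1, 31.5, 15.3 and 36.1% in Eµ-TCL1 and 28.9, 29.0 and 26.6% in wildtype mice. Nfkb1 was thus the subunit gene with the most TPM in all 3 Eµ-MTCP1 mice and in B4437, and Nfkb2 in the other 2 Eµ-TCL1 and all 3 wildtype mice. The shares of Rela (14.7 to 24.2% over all mice) and Relb (19.6 to 26.3%) overlapped between the groups, and Rel made up 5.78 to 14.8%. These shares are descriptions without a test.

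**Figure D2:**
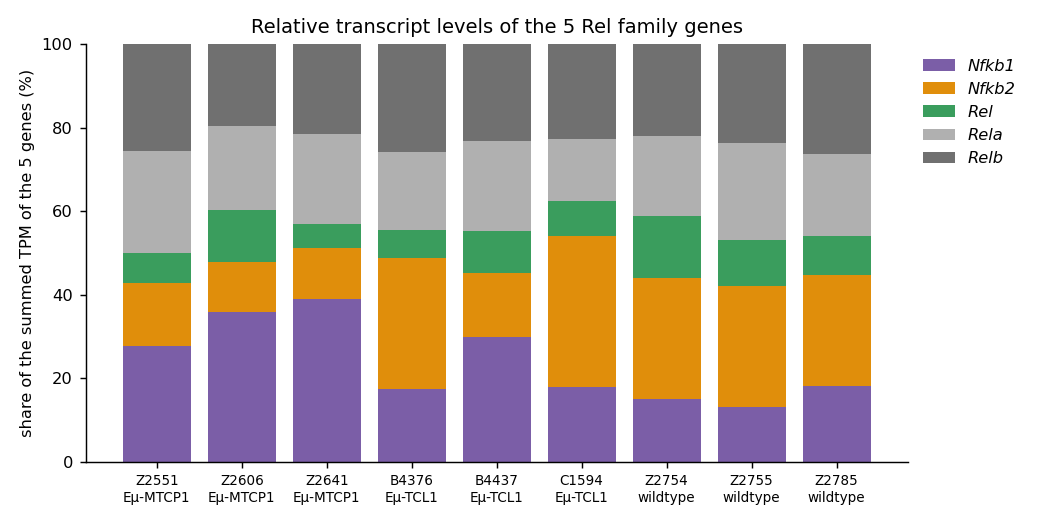
Share of each Rel family gene in the summed TPM of the 5 genes (y axis, percent) in each of the 9 mice (x axis). The Nfkb1 share (bottom) was 27.6 to 39.1% in the Eµ-MTCP1 mice and 13.2 to 18.1% in the wildtype mice, and Eµ-TCL1 mouse B4437 resembles the Eµ-MTCP1 mice with 29.9%.

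The IkappaB genes encode the inhibitors that bind the dimers, and Nfkbia (chr12:55489410-55492647, minus strand) encodes the one that NF-kappaB resynthesizes fastest. Nfkbia had 544, 476 and 458 CPM in Eµ-MTCP1 mice, 493, 501 and 776 CPM in Eµ-TCL1 mice and 806, 836 and 1065 CPM in wildtype mice. All 6 leukemic mice were below the wildtype mice, with C1594 the closest. Nfkbia fell by 0.87 ± 0.23 on the log2 scale in Eµ-MTCP1 mice (adjusted p = 0.042), and the log2 fold change was -0.61 ± 0.23 (adjusted p = 0.13) in Eµ-TCL1 mice. This call was the least stable of the 5: it was lost when any of the 3 Eµ-MTCP1 or 3 wildtype mice was left out, with adjusted p between 0.074 and 0.11.

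The other IkappaB genes were not called in the edgeR fit of all mice; Nfkbid was called lower in Eµ-MTCP1 mice with DESeq2 (adjusted p = 0.038) and without Z2551. Nfkbid, a nuclear regulator induced by antigen receptors, had 317, 195 and 98.4 CPM in the Eµ-MTCP1 mice, 241, 370 and 283 CPM in the Eµ-TCL1 mice and 372, 433 and 392.2 CPM in the wildtype mice. All 6 leukemic mice lay below the wildtype mice, although B4437 by only a small margin and not in the deposited log2 values per gene, and the spread within the models was wide, and the log2 fold changes were -0.97 ± 0.35 (adjusted p = 0.12) and -0.42 ± 0.35 (adjusted p = 0.50). Bcl3, a coactivator of Nfkb1 and Nfkb2 homodimers, had 103, 58.2 and 175 CPM in the Eµ-MTCP1 mice, 93.9, 40.4 and 37.5 CPM in the Eµ-TCL1 mice and 90.1, 89.7 and 93.5 CPM in the wildtype mice. Wildtype mice were close to each other for Bcl3, and the leukemic mice scattered on both sides of them.

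Nfkbib, which holds canonical dimers in the cytoplasm, had 131, 124 and 106 CPM in the Eµ-MTCP1 mice, 152, 158 and 242 CPM in the Eµ-TCL1 mice and 113, 128 and 170 CPM in the wildtype mice. Nfkbie, the IkappaB that restrains Rel in B cells, had 67.4, 39.8 and 31.2 CPM in the Eµ-MTCP1 mice, 97.7, 56.7 and 89.2 CPM in the Eµ-TCL1 mice and 52.3, 65.4 and 84.0 CPM in the wildtype mice. Nfkbiz, an inducible nuclear IkappaB, had 72.9, 104 and 60.5 CPM in the Eµ-MTCP1 mice, 128, 96.5 and 125 CPM in the Eµ-TCL1 mice and 59.1, 71.9 and 104 CPM in the wildtype mice. Wildtype values overlapped with those of both models for all 3 genes in CPM, while in the deposited log2 values per gene the 3 Eµ-TCL1 mice lay above the wildtype mice for Nfkbib, and the Eµ-TCL1 log2 fold changes were 0.43 ± 0.23, 0.27 ± 0.32 and 0.57 ± 0.26 (adjusted p = 0.29, 0.64 and 0.21).

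Among the IKK and IKK-related kinases no gene was called in the edgeR fit of all mice in any of the 4 comparisons. DESeq2 and library size alone called Chuk and Ikbkb lower in both models combined and Ikbkb in Eµ-MTCP1 mice, and library size alone also called Chuk there. Without wildtype mouse Z2785, edgeR called Chuk lower in Eµ-MTCP1 mice and in both models combined. Chuk, the IKK subunit of the noncanonical route, had the largest log2 fold change of the group in both models combined, -0.80 ± 0.27 (adjusted p = 0.074). That value ranged from -1.08 to -0.34 when 1 mouse was left out. Chuk had 30.4, 42.1 and 31.5 CPM in the Eµ-MTCP1 mice, 42.1, 39.5 and 41.7 CPM in the Eµ-TCL1 mice and 103, 56.7 and 38.2 CPM in the wildtype mice, so that 1 wildtype mouse, Z2754, was far above the rest and Z2785 was inside the leukemic range. Ikbkb, the canonical kinase, differed less but more evenly: its range was 135 to 140 CPM in Eµ-MTCP1, 133 to 164 CPM in Eµ-TCL1 and 177 to 206 CPM in wildtype mice, with no overlap between leukemic and wildtype mice and a combined log2 fold change of -0.43 ± 0.13 (adjusted p = 0.061). The combined adjusted p of Ikbkb was 0.044 with the deposited whole counts, 0.0436 with the standard mouse reference and 0.0146 with DESeq2. The regulatory subunit Ikbkg (13.8 to 27.0 CPM over all mice) and Tbk1 (41.5 to 80.3 CPM) overlapped between all groups. Ikbke, a kinase of interferon responses, was at 19.5 to 32.5 CPM in Eµ-TCL1 mice, above the 8.09 to 14.4 CPM of Eµ-MTCP1 and the 4.71 to 18.5 CPM of wildtype mice.

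The upstream kinases and adaptors were the only role group whose median log2 fold change against wildtype was above 0 in both models, 0.11 in Eµ-MTCP1 and 0.16 in Eµ-TCL1 mice, with no member called in the edgeR fit of all mice. Tab1, an adaptor of the kinase encoded by Map3k7, was at 20.8 to 37.2 CPM in Eµ-MTCP1 and 22.3 to 29.96 CPM in Eµ-TCL1 mice, above the 11.2 to 19.3 CPM of wildtype mice (combined log2 fold change 0.73 ± 0.27, adjusted p = 0.098). Irak2, a kinase adaptor of Toll-like receptors, was at 67.6 to 89.1 and 70.6 to 119 CPM in the models and at 61.3 to 66.9 CPM in wildtype mice; it was called higher in Eµ-TCL1 mice with the whole counts (adjusted p = 0.039) and without B4437. Map3k14, the kinase that drives noncanonical signaling, was at 29.2 to 36.1 CPM in Eµ-MTCP1, 21.2 to 35.3 CPM in Eµ-TCL1 and 39.2 to 66.3 CPM in wildtype mice (combined log2 fold change -0.67 ± 0.22, adjusted p = 0.074, and 0.048 with DESeq2).

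Map3k7, the kinase upstream of IKK, had the largest combined log2 fold change of this group, -1.15 ± 0.55 (adjusted p = 0.20). It had 9.68, 8.67 and 2.64 CPM in the Eµ-MTCP1 mice, 8.58, 5.04 and 7.98 CPM in the Eµ-TCL1 mice and 8.30, 33.0 and 5.89 CPM in the wildtype mice, and Z2755 alone stood above the leukemic range. The deposited whole counts, which also cover untranslated sequence, gave a combined log2 fold change of -0.58 for Map3k7. Tab2 (21.1 to 41.5 CPM), Irak1 (97.9 to 208 CPM), Irak4 (19.3 to 41.9 CPM) and Ripk1 (16.5 to 47.6 CPM) had adjusted p of 0.20 or more in both models.

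Every one of the 7 TRAF and cIAP genes, which encode ubiquitin ligases and adaptors at the receptors, had a log2 fold change below 0 in Eµ-MTCP1 mice, with a median of -0.76, and 6 of 7 did so in Eµ-TCL1 mice, with a median of -0.19. In the edgeR fit of all mice only Birc3 was called. Birc3 (chr9:7848699-7873186, minus strand), the inducible cIAP ligase, had 133, 110 and 132 CPM in Eµ-MTCP1 mice, 210, 123 and 217 CPM in Eµ-TCL1 mice and 265, 214 and 246 CPM in wildtype mice. The Eµ-MTCP1 mice were all below the wildtype mice, while C1594 was just inside the wildtype range and B4437 was again lowest of its group. In the deposited log2 values per gene all 3 Eµ-TCL1 mice lay below the wildtype mice for Birc3. Birc3 fell by 0.95 ± 0.23 on the log2 scale in Eµ-MTCP1 mice (adjusted p = 0.028), and its log2 fold change was -0.40 ± 0.23 (adjusted p = 0.31) in Eµ-TCL1 mice. The call was lost without Z2551, Z2606, Z2754 or Z2785, with adjusted p between 0.066 and 0.097.

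Traf3, which keeps the kinase encoded by Map3k14 at low levels, had the largest combined log2 fold change of the group, -1.24 ± 0.47 (adjusted p = 0.11). It had 19.2, 19.3 and 26.9 CPM in Eµ-MTCP1 mice, 9.27, 24.3 and 2.66 CPM in Eµ-TCL1 mice and 36.2, 45.4 and 33.7 CPM in wildtype mice. All 6 leukemic mice were below the wildtype mice, and the low values of B4376 and C1594 were also seen in the deposited whole counts, at 256 and 143 reads against 818 in B4437 and 964 to 1497 in wildtype mice. The 2 Eµ-TCL1 mice with low Traf3 were the 2 with high Nfkb2, at 298 and 427 CPM, and B4437 with 24.3 CPM of Traf3 had 110 CPM of Nfkb2. Across the groups the order was not inverse: wildtype mice had the most Traf3, 33.7 to 45.4 CPM, beside 285 to 331 CPM of Nfkb2. Eµ-MTCP1 mice had less of both, 19.2 to 26.9 CPM of Traf3 and 83.1 to 105 CPM of Nfkb2. The ordering within the 3 Eµ-TCL1 mice is a description and was not tested. In the deposited log2 values per gene each model overlapped with wildtype for Traf3. The Eµ-TCL1 log2 fold change of Traf3 was -1.66 ± 0.58 (adjusted p = 0.10); without B4437 it was -2.70 and passed the threshold (adjusted p = 0.00997).

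Traf5, an adaptor of CD40-type receptors, was at 54.6 to 78.8 CPM in Eµ-MTCP1, 42.2 to 92.4 CPM in Eµ-TCL1 and 102 to 117 CPM in wildtype mice, with a combined adjusted p of 0.051. Traf6, the ligase of Toll-like and interleukin receptors, was at 16.7 to 23.9 CPM in Eµ-MTCP1 and 30.5 to 37.5 CPM in wildtype mice, with 25.6 to 37.0 CPM in Eµ-TCL1 mice. Traf1, a target and adaptor of the pathway, was at 27.8 to 52.8 CPM in Eµ-MTCP1, 44.3 to 89.2 CPM in Eµ-TCL1 and 58.4 to 79.8 CPM in wildtype mice. Traf2 was at 47.6 to 58.6 CPM in Eµ-MTCP1 mice, 60.7 to 113 CPM in Eµ-TCL1 mice and 62.2 to 79.2 CPM in wildtype mice. Birc2, the constitutive cIAP ligase, was at 26.9 to 41.8, 40.03 to 58.5 and 42.2 to 65.5 CPM in the same order, and in the deposited log2 values per gene its Eµ-MTCP1 mice overlapped with wildtype. None of these 5 genes was called in the edgeR fit of all mice. DESeq2 called Traf6 lower in Eµ-MTCP1 mice (adjusted p = 0.030) and Traf5 lower in Eµ-TCL1 mice (adjusted p = 0.048), and the standard mouse reference called Traf6 lower in Eµ-MTCP1 mice and Traf5 lower in both models combined.

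Tnfaip3 (chr10:19000910-19015657, minus strand) encodes a ubiquitin-editing enzyme that ends NF-kappaB signaling and is itself an NF-kappaB target. It had 63.7, 89.1 and 24.9 CPM in Eµ-MTCP1 mice, 123, 150 and 124 CPM in Eµ-TCL1 mice and 203, 196 and 249 CPM in wildtype mice. The 3 groups did not overlap, with Eµ-TCL1 mice between the others. Tnfaip3 fell by 1.86 ± 0.37 on the log2 scale in Eµ-MTCP1 mice (adjusted p = 0.011), and its log2 fold change in Eµ-TCL1 mice was -0.71 ± 0.36 (adjusted p = 0.25). In Eµ-TCL1 mice Tnfaip3 was called lower in 2 of 18 alternatives, with only the groups compared and without Eµ-MTCP1 mouse Z2641. In these fits 587 and 597 of all genes were called lower. It was the member called in Eµ-MTCP1 mice under all 18 alternatives, with log2 fold changes from -2.32 to -1.52. The deposited whole counts gave -1.89 (adjusted p = 0.0095). In the deposited log2 values per gene the Eµ-TCL1 mice overlapped with the wildtype mice for Tnfaip3, unlike in the CPM given here.

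The partners of that enzyme and the other deubiquitinases gave no call. Tnip1 (32.1 to 47.3 CPM over all mice) and Tnip2 (18.5 to 30.7 CPM), both binding partners of the Tnfaip3 product, and Cyld (43.0 to 87.3 CPM) overlapped between the groups. Otulin, which cleaves linear ubiquitin chains, had 40.0, 34.0 and 44.3 CPM in the Eµ-MTCP1 mice, 18.8, 35.4 and 34.2 CPM in the Eµ-TCL1 mice and 34.3, 153 and 34.2 CPM in the wildtype mice. Its combined log2 fold change of -1.12 ± 0.44 (adjusted p = 0.12) thus rested on Z2755, and the deposited whole counts showed the same, with 2050 reads in that mouse and 262 to 565 in the others. In the linear ubiquitin ligase complex, Rnf31 had 75.5, 67.9 and 94.3 CPM in the Eµ-MTCP1 mice, 93.0, 62.8 and 90.9 CPM in the Eµ-TCL1 mice and 81.2, 109 and 130 CPM in the wildtype mice (combined log2 fold change -0.40 ± 0.20, adjusted p = 0.22), and Rbck1 was at 195 to 325 CPM over all mice.

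**Figure D3:**
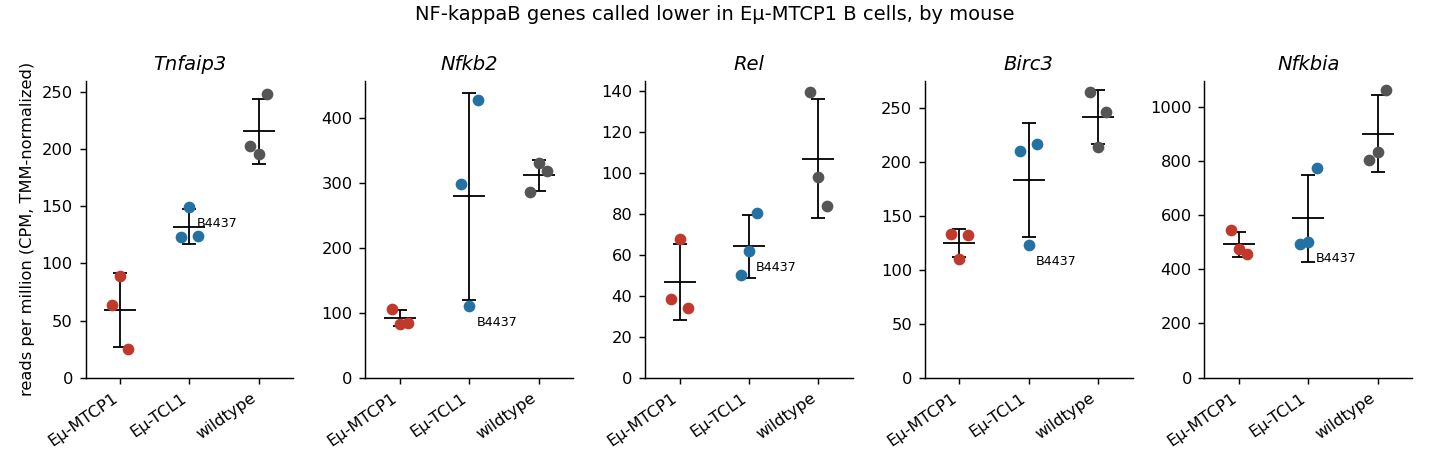
Normalized CPM (y axis, starting at 0) of the 5 called genes in each mouse (points) of the 3 groups, with the group mean and SD as black bars. Eµ-MTCP1 mice lie below wildtype mice in each panel. Eµ-TCL1 mouse B4437 lies near the Eµ-MTCP1 mice for Nfkb2 (110 CPM) and Birc3 (123 CPM), but is the highest Eµ-TCL1 mouse for Tnfaip3 (150 CPM).

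Group means describe the same 5 genes with their spread. Tnfaip3 had 59.2 ± 32.3 CPM (SD, n = 3) in the Eµ-MTCP1 group, 132 ± 15.2 CPM in the Eµ-TCL1 group and 216 ± 28.6 CPM in wildtype mice. Nfkb2 had 91.0 ± 12.4, 279 ± 160 and 311 ± 23.4 CPM in the same order, and its SD in Eµ-TCL1 mice exceeded the others by far. Nfkbia had 493 ± 45.5, 590 ± 161 and 902 ± 142 CPM, Birc3 125 ± 12.9, 183 ± 52.4 and 242 ± 25.5 CPM, and Rel 46.8 ± 18.5, 64.1 ± 15.4 and 107 ± 28.8 CPM.

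Compared per length, Nfkbia had the highest mean level of the 38 genes in each group, 758 TPM in wildtype, 319 TPM in Eµ-MTCP1 and 422 TPM in Eµ-TCL1 mice. Nfkbid followed with 198 TPM in wildtype mice, then Rbck1 with 126, Birc3 with 95.8 and Nfkbib with 90.7 TPM. In Eµ-MTCP1 mice Tnfaip3 had 12.5 TPM and Nfkb2 16.4 TPM, beside 65.7 and 72.3 TPM in wildtype mice. The lowest wildtype level was that of Ikbke, 3.74 TPM. TPM values were not renormalized between mice, so these levels order genes within a group and are not a test between groups.

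Transcript shares were uneven for some members. Rel and Nfkbia each had only 1 transcript in this reference, so that their reads could fall on no other. For Nfkbid, Nfkbib and Nfkbiz all reads fell on 1 of 2 transcripts (100% in each mouse), and Tnfaip3-201 held 97.6 to 100% of the Tnfaip3 reads. For Nfkb2, transcript Nfkb2-201 held 80.4 to 92.4% of the reads in every mouse, with overlapping ranges in the 3 groups. For Relb, Relb-202 held 64.3 to 84.5% in 8 mice and 11.6% in Eµ-MTCP1 mouse Z2641, where Relb-201 held 88.4%. For Nfkbie, Nfkbie-203 held 34.2 to 34.8% in the wildtype mice, 12.1 to 18.6% in the Eµ-TCL1 mice and 7.05, 15.6 and 58.8% in the Eµ-MTCP1 mice. These shares are estimates by Salmon between overlapping coding sequences, and no test was made of them.

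The models were also compared with each other. No member passed the adjusted threshold with edgeR, and 4 of all 11163 genes did, 0.0358%. At an unadjusted p under 0.05, 10 members (26.3%) were higher in the Eµ-TCL1 group than in the Eµ-MTCP1 group, namely Nfkb2, Ikbke, Tnfaip3, Nfkbie, Ripk1, Traf1, Traf2, Nfkbib, Traf6 and Birc3, against 3.24% of all genes. Bcl3 was the 1 member lower at that level, against 3.16%. For 7 members (Nfkb2, Ikbke, Tnfaip3, Ripk1, Traf2, Nfkbib and Traf6) all 3 Eµ-TCL1 mice lay above all 3 Eµ-MTCP1 mice, 18.4% of the members and 5.4% of all genes, and for none did they lie below, against 5.63%. The median log2 fold change was 0.23 for the members and -0.002 for all genes.

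The largest differences between the models were those of Nfkb2, with a log2 fold change of 1.61 ± 0.39 (adjusted p = 0.38), Ikbke with 1.16 ± 0.47 (adjusted p = 0.70) and Tnfaip3 with 1.16 ± 0.36 (adjusted p = 0.63). DESeq2 called Nfkb2 alone among the members, with a log2 fold change of 1.61 (adjusted p = 0.0075), where 38 of all genes were called higher and 33 lower. Without B4437 the edgeR fit called it as well, at 1.99 (adjusted p = 0.013), among 3 genes called higher and 2 lower. Ripk1, a kinase of death receptors, was at 41.0 to 47.6 CPM in Eµ-TCL1 mice and 16.5 to 32.5 CPM in Eµ-MTCP1 mice, with a log2 fold change of 0.76 ± 0.25 (adjusted p = 0.63). For Nfkbib and Traf2 the values were 0.61 ± 0.23 and 0.64 ± 0.24 (both adjusted p = 0.69).

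**Figure D4:**
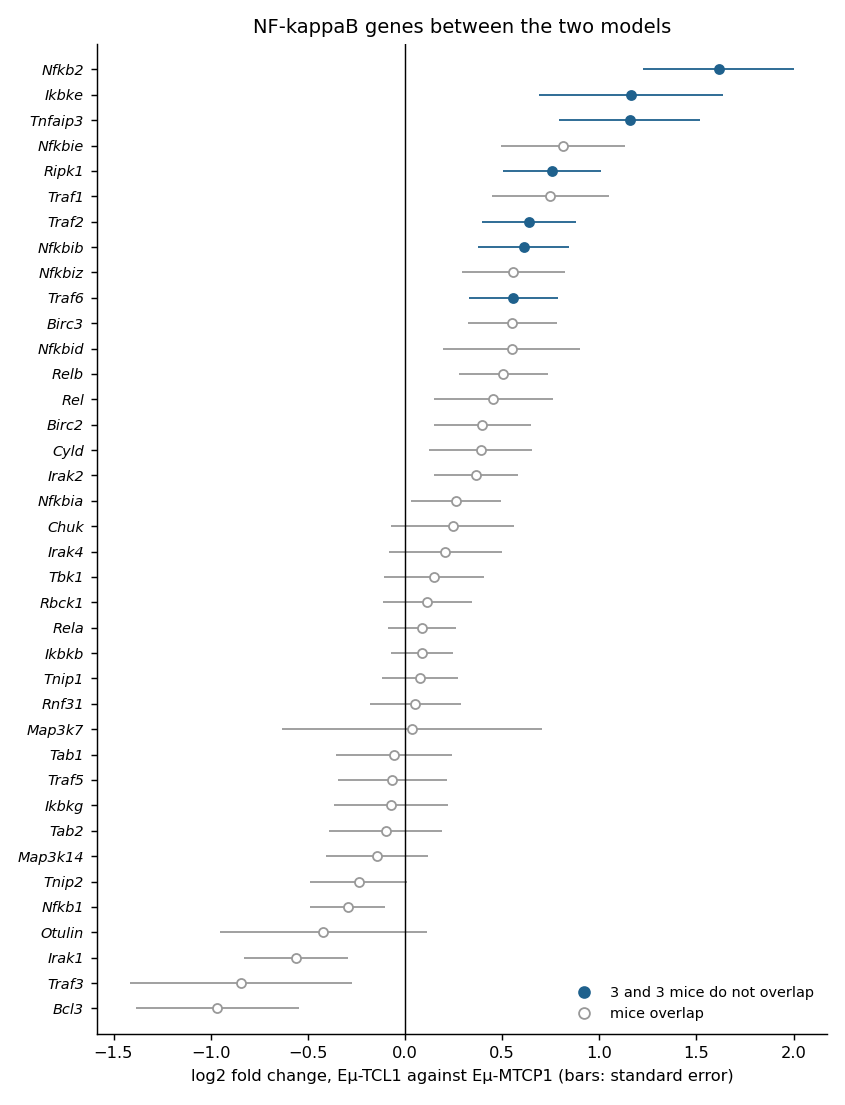
Log2 fold change of each of the 38 genes in Eµ-TCL1 against Eµ-MTCP1 mice (points, x axis) with its standard error (bars), in order of size. Filled points are the 7 genes for which the 3 and 3 mice do not overlap; all 7 lie right of 0, and none of the 38 passed the adjusted threshold.

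Within the Eµ-TCL1 group B4437 was the lowest of the 3 mice for 20 of the 38 members (52.6%) and for 33.1% of all genes tested, while C1594 was the lowest for 5 members (13.2%) and 32.6% of all genes. Within the Eµ-MTCP1 group Z2641 was the lowest for 19 members (50.0%) and 39.7% of all genes. Wildtype mouse Z2755 was the lowest of its group for 6 members (15.8%) and 28.1% of all genes.

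Genes of the pathway outside the 38 were described from lists chosen in the same way, and their counts are to be read against the 9.49%, 9.16% and 13.1% of all genes called for Eµ-MTCP1, for Eµ-TCL1 and for both models combined. Of the receptors, 12 of 15 were tested, and Cd40, the costimulatory receptor of B cells, and Tlr1 fell in both models combined. Cd40 had 67.8, 42.5 and 26.4 CPM in the Eµ-MTCP1 mice, 80.2, 63.5 and 60.9 CPM in the Eµ-TCL1 mice and 153, 138 and 166 CPM in the wildtype mice, a log2 fold change of -1.74 ± 0.30 (adjusted p = 0.0055) and -1.16 ± 0.29 (adjusted p = 0.035). Tlr1 passed in Eµ-TCL1 mice (-1.37 ± 0.37, adjusted p = 0.045), and Tnfrsf13c, the BAFF receptor, rose in Eµ-MTCP1 mice. Of the 10 genes between the B cell receptor and IKK, all tested, none was called in either model alone and Btk, the kinase behind the receptor, fell by 0.53 ± 0.14 with both combined (adjusted p = 0.030).

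Of the 14 adaptors tested from a list of 16, 3 fell in Eµ-MTCP1 mice (Traf4, Irak3 and Tank) and none rose; in Eµ-TCL1 mice Traf4 and Irak3 fell and Ticam1, the adaptor of Toll-like receptors that signal from endosomes, rose. Traf4 was at 5.45 to 7.67 CPM in Eµ-MTCP1, 4.79 to 17.8 CPM in Eµ-TCL1 and 32.5 to 64.7 CPM in wildtype mice. Irak3, an inhibitory member of its kinase family, was at 6.82 to 20.02, 7.84 to 15.6 and 32.8 to 40.9 CPM. Of the 14 negative regulators tested from 16, Nlrc3, which dampens Traf6 signaling, was called lower in both models but passed the filter on low expression only through the wildtype mice, so its values are a description: it had 0.82, 0.14 and 0 CPM in the Eµ-MTCP1 mice, 3.74, 3.68 and 0 CPM in the Eµ-TCL1 mice and 25.7, 28.3 and 26.1 CPM in the wildtype mice. Commd1, which promotes removal of Rela, rose in Eµ-MTCP1 mice (0.81 ± 0.17, adjusted p = 0.015), and Nlrx1, a mitochondrial regulator, rose in Eµ-TCL1 mice (1.53 ± 0.29, adjusted p = 0.0087).

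The genes known as targets of NF-kappaB went both ways, with 32 of 34 tested. In Eµ-MTCP1 mice 4 rose (Cd80, Il10, Ebi3 and Ccnd2) and 2 fell (Ccr7 and Cd83), and in Eµ-TCL1 mice 4 rose (Il10, Cd80, Ccnd2 and Sod2) and 1 fell (Ccr7). Cd80, a costimulatory ligand, had 15.8 to 31.5 CPM in the 6 leukemic mice and 2.35 to 2.87 CPM in wildtype mice. Il10, an immunosuppressive cytokine, had 8.10 to 26.4 CPM in leukemic and 1.49 to 1.95 CPM in wildtype mice. The homing receptor Ccr7 had 29.2, 80.5 and 22.1 CPM in the Eµ-MTCP1 mice, 59.2, 56.9 and 89.9 CPM in the Eµ-TCL1 mice and 471, 465 and 526 CPM in the wildtype mice. Ccnd2, a G1 cyclin, was at 212 to 282 CPM in Eµ-MTCP1, 175 to 256 CPM in Eµ-TCL1 and 78.6 to 120 CPM in wildtype mice. With both models combined 4 targets rose and 3 fell, among the latter Junb, a subunit of the AP-1 factor, with a log2 fold change of -1.002 ± 0.27 (adjusted p = 0.034). Junb was at 516 to 1157 CPM in the leukemic mice and at 1478 to 1967 CPM in wildtype mice. The median log2 fold change of the tested targets was -0.35 in Eµ-MTCP1 and -0.26 in Eµ-TCL1 mice, below that of all genes, and 24 of the 32 values were above 0 in Eµ-TCL1 against Eµ-MTCP1 mice, beside 5543 of all 11163 genes, none of the 32 called.

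**Figure D5:**
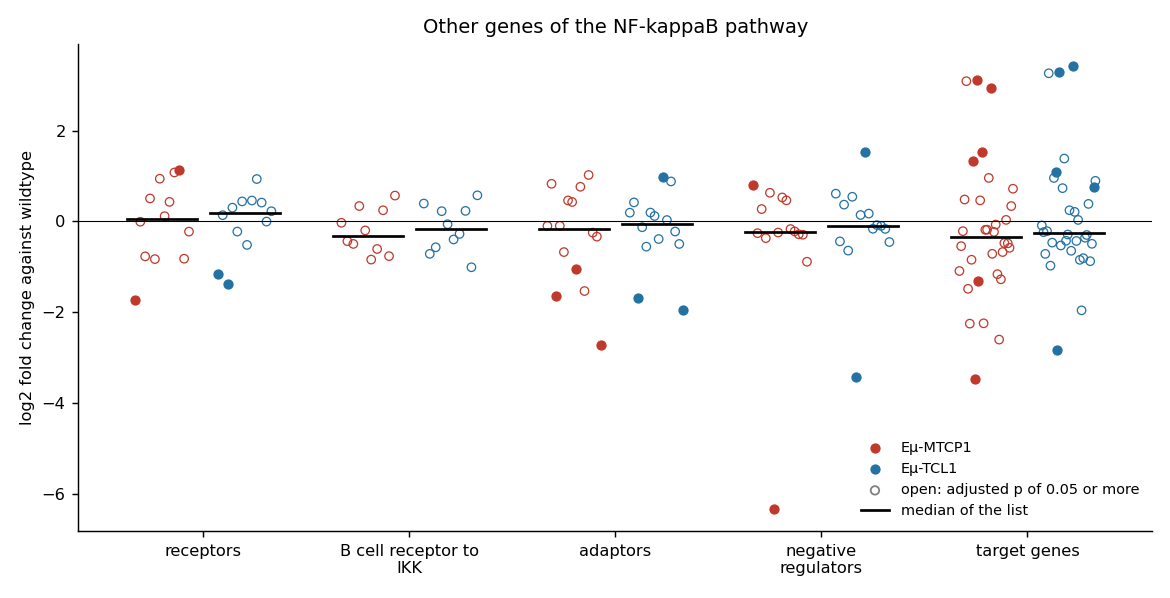
Log2 fold changes against wildtype (y axis) of the tested genes in 5 lists of other pathway genes (x axis), in red for Eµ-MTCP1 and in blue for Eµ-TCL1, with filled points for an adjusted p under 0.05 and a black line at the list median. Medians lie between -0.35 and 0.18, and the target genes show calls on both sides of 0, among them Ccr7 at -3.47 and Cd80 at 3.104 in Eµ-MTCP1 mice.

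Markers of other cells that the isolation could leave were summed per mouse. The 10 myeloid markers summed to 556 to 2107 CPM in Eµ-MTCP1, 165 to 1654 CPM in Eµ-TCL1 and 956 to 4086 CPM in wildtype mice. The highest sum was that of Z2755, with 21406 reads of Mpo, while Csf1r was highest in B4376, at 1094 reads against 873 in Z2755. Z2755 also stood apart for Otulin and Map3k7 and was the mouse on lane 1, so that lane and cell content cannot be told apart there. The 6 NK cell markers summed to 22.3 to 25.3, 3.5 to 127 and 40.0 to 75.8 CPM, so that this sum was lower in Eµ-MTCP1 than in wildtype mice. Reads of Gzma (1 to 36 against 61 to 146) and Prf1 (6 to 13 against 58 to 84) lay apart between these groups. Those of Ncr1 (0 to 21 against 4 to 45), Eomes (0 to 20 against 1 to 19), Nkg7 and Klrb1c overlapped. No NK cell marker was called in Eµ-MTCP1 mice. The 10 T cell markers summed to 5.58 to 24.4 CPM in Eµ-MTCP1, 10.1 to 62.7 CPM in Eµ-TCL1 and 4.89 to 12.5 CPM in wildtype mice. Eµ-TCL1 mouse B4376 had the highest sum of both the T cell and the NK cell list. The 8 erythroid markers summed to 26.8 to 325, 24.2 to 71.8 and 37.5 to 175 CPM. The 6 plasma cell markers summed to 348 to 2962, 128 to 1998 and 812 to 1364 CPM, and Prdm1 was the only gene of these 5 lists that was called in both models combined, higher. No marker gene of these lists had 0 reads in all mice. The part of these cells in the differences of the NF-kappaB genes was not tested.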

How the data were processed

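RNA-seq libraries of splenic B cells from 9 mice, 1 library per mouse, were analysed. The labels name both a SMARTer v4 with Nextera XT preparation and a TruSeq stranded kit. Per the submitters' processing notes, the authors used CASAVA 1.8.2, HISAT2 2.0.6, Subread featureCounts, Salmon 1.0.0 and DESeq2 with build GRCm38.p4. The deposited tables hold estimated counts and TPM per transcript by Salmon, whole counts per gene, and log2 expression values per gene. The paper names tximport for import of Salmon estimates and DESeq2 for their normalization. The transformation behind the deposited log2 values is not stated in the sources used here. Columns of the authors' own comparisons (fold changes and p-values) were not used.

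Estimated counts from the reference with human transcripts were summed per gene with GENCODE M21 and rounded to whole numbers; 442 transcripts were not in M21 and held 0.19 to 0.29% of the reads. This reference is mostly of coding length (87.3% of 57871 transcript lengths are multiples of 3, against 35.0% of 140748 in the standard reference), so 37 of 38 members had fewer reads than in the whole counts (median 52.5%). The 17 human transcripts, 4 of them with reads, were given to human MTCP1 or TCL1 by their correlation with the authors' human genes.

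Genes passing edgeR's expression filter (11163) were normalized by TMM and tested with edgeR 4.0.16 quasi-likelihood F tests (limma 3.58.1, R 4.3.3), with all 9 mice in 1 model and Benjamini-Hochberg adjustment over all genes. DESeq2 1.42.0 was an alternative. p-values measure the spread between mice. The scripts were tested on simulated data. The 38 members, the other lists and the tests were chosen with earlier results of these data known. By rule, values in every mouse were given for members called in any comparison, all Rel subunits and IkappaB genes, and the member of each other role group with the largest absolute log2 fold change in both models combined. Of the other lists, the genes called in both models combined were to be named, at most 6 per list. Named after their values were seen were Otulin in every mouse, the ordering of Traf3 beside Nfkb2, the remarks on Eµ-TCL1 mouse B4437, the transcript shares, and Tnfrsf13c, Cd83, Sod2 and Prdm1.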

Additional observations from a re-analysis of the deposited data

How the results depend on the processing

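The number of members called in Eµ-MTCP1 mice was 5, and 10 with DESeq2 or library size alone; leaving out 1 mouse gave 1 to 6, with 253 to 457 of all genes called lower (446 with all mice). In Eµ-TCL1 mice it was 0, and 3 with DESeq2, 1 with the whole counts and 1 with only the groups compared (587 of all genes lower); leaving out 1 mouse gave 0 to 2, with 258 to 597 of all genes lower (461 with all mice). For both models combined it was 4, and 10 with DESeq2 and 11 with library size alone; leaving out 1 mouse gave 0 to 5, with 415 to 811 of all genes lower (688 with all mice). Between the models it was 0, and 1 with DESeq2; leaving out 1 mouse gave 0 to 1, with 1 to 4 of all genes called higher. Library size alone moved the median of all genes to -0.26 in the Eµ-MTCP1 comparison, -0.15 in that of Eµ-TCL1 and -0.21 in both combined, and the calls of all genes in Eµ-MTCP1 mice from 613 higher and 446 lower to 391 higher and 731 lower; DESeq2 called 933 higher and 713 lower. The cause of these changes was not tested.

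Over all 38 members and the 4 comparisons, 42 of 152 log2 fold changes took both signs among the alternatives (11 in Eµ-MTCP1, 10 in Eµ-TCL1, 10 in both combined and 11 between the models), and none of the 42 was called. Values are given here for the 17 members named by rule only. Among these, the ones that changed sign were, with library size alone, Nfkb1 in Eµ-TCL1 (-0.0486), Nfkbib in both combined (-0.0594) and Nfkbiz in Eµ-MTCP1 (-0.21). With the standard mouse reference they were Nfkbiz in Eµ-MTCP1 (-0.0466) and Map3k7 between the models (-0.41), with the whole counts Map3k7 between the models (-0.41), with only the groups compared Nfkbiz in Eµ-MTCP1 (-0.0068), and with transcript length offsets Map3k7 (-0.0332) and Rnf31 (-0.14) between the models. When 1 mouse was left out, the ranges of these 17 members that crossed 0 were, in Eµ-MTCP1, Bcl3 (-0.21 to 0.57), Nfkbib (-0.32 to 0.0001) and Nfkbiz (-0.26 to 0.27); in Eµ-TCL1, Nfkb1 (-0.0328 to 0.24) and Nfkb2 (-0.61 to 0.20); in both combined, Nfkbib (-0.0104 to 0.31) and Nfkbie (-0.32 to 0.0552); and between the models, Map3k7 (-0.36 to 0.34) and Rnf31 (-0.0468 to 0.21). No paired analysis was possible because the labels give no pairing between mice. The lowest read number of a member, 16, was that of Map3k7 in Z2641; the smallest difference that 3 mice per group can show was not tested.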
